A study of Penicillium oxalicum with 9 samples.

Results

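The locus numbers PDE_09217 to PDE_09255 of Penicillium oxalicum held the steepest falls in transcript level seen in a strain without crzA. The window was chosen for that reason, as the stretch of neighbouring numbers with the steepest falls in the deletion strain plus its flanks on both sides. It held 38 of the 9860 genes in the table, after 1 number inside the range was left out and not analysed here. P. oxalicum is a mould used to produce enzymes that degrade plant biomass. The series held 9 libraries of fungal mycelium, 3 from each of 3 strains. The wild type was strain 114-2, the deletion strain lacked crzA, and in the recovery strain crzA had been restored. All 9 samples had a pre-culture of 24 h at 30 °C and were harvested 18 h after the washed mycelium was moved to modified Mendal's medium with 2% starch by the medium label, although the source labels name glucose. No label says whether replicates came from separate cultures or how many transformants stood behind the deletion and recovery strains, and where crzA was reinserted is not stated in the labels. The spread behind the tests is therefore that between libraries, and it may be technical.

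CrzA is the fungal counterpart of yeast Crz1, a DNA-binding regulator with zinc fingers. It is activated when calcineurin, a phosphatase switched on by calcium, removes phosphate from it and it moves into the nucleus, where it acts on genes of calcium handling, cell wall and stress responses. Filamentous fungi often keep genes of one secondary metabolic or catabolic pathway side by side on a chromosome, and such neighbours are often transcribed together. The file gives locus numbers with no gene names or coordinates, and 0 of its numbers matched the reference table of strain HP7-1. The members therefore carry no name or role here, and neighbours are neighbours in number. The level of crzA itself, which would check the strain labels, was not analysed here.

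Levels are in FPKM, fragments divided by gene length and by library total, so levels of different genes are per length. Whether division by length fits the tag protocol named in the labels is not known, which limits comparisons between genes but not those of 1 gene between libraries. Summed FPKM per library ranged from 973798 to 1063502, and the number of reads was not given. Wild-type replicate 2 and deletion replicate 2 stood apart from their own strains. Over the 9099 genes tested, which are not independent replicates, wild-type replicates 1 and 3 had log2 levels correlated at r = 0.993, whereas replicate 2 correlated with these at 0.943 and 0.949. In the deletion strain replicates 1 and 3 correlated at 0.987, and replicate 2 with them at 0.937 and 0.944. The recovery libraries correlated at 0.989 to 0.996.

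In the middle of the window, 18 consecutive members from PDE_09227 to PDE_09244 were lower in the deletion strain by at least 4-fold against both other strains, on the log2(FPKM + 1) scale, as were 3.21% of all tested genes. They are called the steep stretch below. No member inside it missed that mark. Together they summed to 34898, 25257 and 36452 FPKM in wild-type replicates 1, 2 and 3, to 282, 239.6 and 411 in the deletion libraries, and to 23033, 22982 and 26260 in the recovery libraries. Every deletion library was far below every library of the other strains, and the recovery libraries lay near wild-type replicate 2. As a share of all summed FPKM the stretch held 3.08% ± 0.612 in the wild type, 0.0310% ± 0.00767 in the deletion strain and 2.29% ± 0.208 in the recovery strain (SD, n = 3 each). The summed deletion level was 0.965% ± 0.276 of the wild-type mean. In mycelium as a whole, fewer cells that hold these transcripts and less RNA per cell cannot be told apart.

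**Figure D1:**
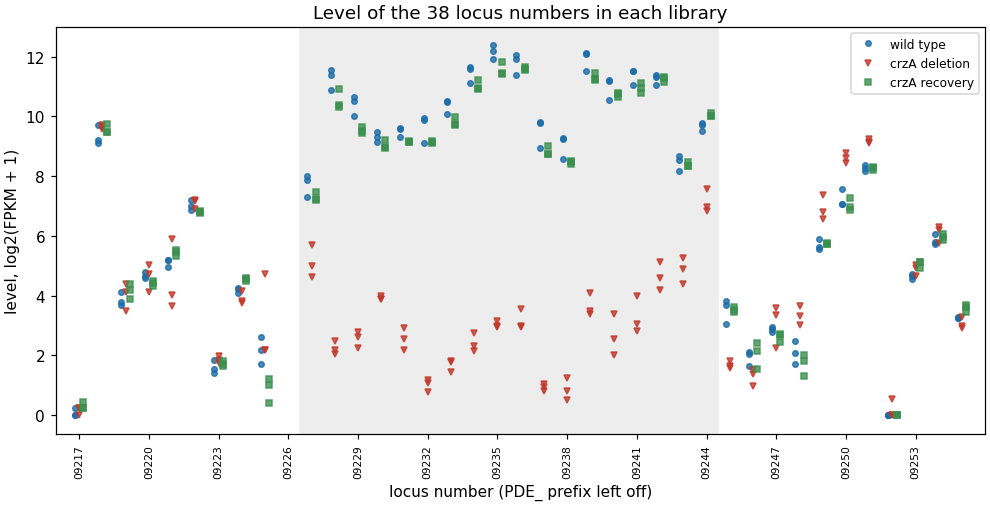
Level of each member as log2(FPKM + 1), with 1 point per library, against locus number; the grey band marks the 18 members of the steep stretch. Inside the band all deletion libraries (triangles) lie below all wild-type (circles) and recovery (squares) libraries, while outside it the strains lie close together apart from PDE_09221, PDE_09225 and the numbers from PDE_09245 to PDE_09251. PDE_09224 and PDE_09255 were also called lower in deletion against recovery, at log2 changes of -0.63 and -0.52.

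Since the deletion comparisons chose the window, the values and counts below describe the members, and a member past the threshold there is no independent result. Against the wild type, 19 of the 36 members that passed the filter on low values were called lower and 4 higher, where 11.1% of all tested genes were called lower and 15% higher (limma, Benjamini-Hochberg adjusted p under 0.05). Against the recovery strain 21 were called lower and 5 higher, where 16.1% and 15.4% of all tested genes were. Both comparisons use the same deletion libraries. The median log2 change of the 18 steep members was -8.22 against the wild type and -7.66 against the recovery strain, and over all tested genes it was 0.06 and -0.02. A fall of at least 64-fold against both strains was shown by 15 of the tested genes (0.165%), and 14 of these were members. The 10 genes with the steepest falls were all members, taking for each gene the smaller of its 2 falls. The steepest fall by that measure outside the window was -6.22 on the log2 scale.

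**Figure D2:**
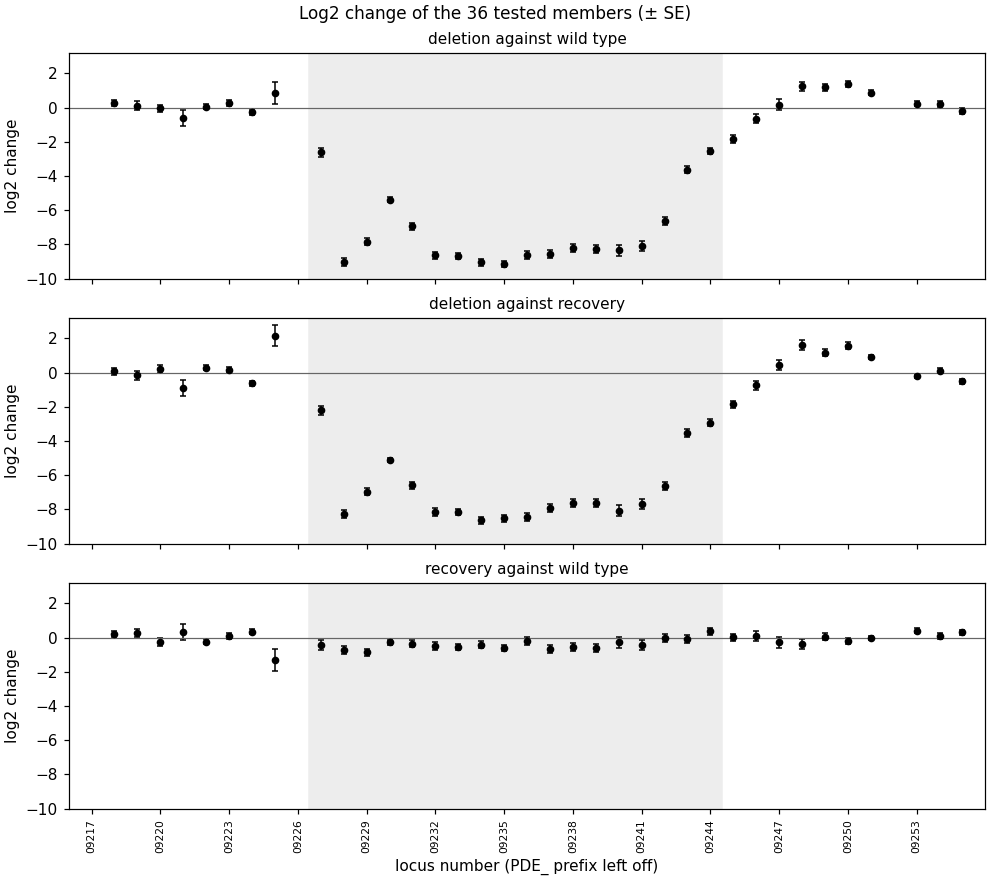
Log2 change on the log2(FPKM + 1) scale with its SE from limma for the 36 tested members, against locus number, in deletion against wild type (top), deletion against recovery (middle) and recovery against wild type (bottom). The steep stretch (grey) has a median of -8.22 in the top panel and -7.66 in the middle one, and lies between -0.86 and 0.38 in the bottom one.

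In the wild type the stretch was among the abundant transcripts of the mycelium. Its members ranked from 14 to 740 of 9860 by mean FPKM, and 17 of the 18 were among the first 500. In the deletion strain the same members ranked from 1198 to 8948, and in the recovery strain from 19 to 1032. The most abundant was PDE_09235, with 4667, 3865 and 5331 FPKM in wild-type replicates 1, 2 and 3, 7.87, 6.91 and 6.82 in the deletion libraries and 2709.6, 2816 and 3617 in the recovery libraries. No deletion library came near the others, and each recovery library was below each wild-type library. Its log2 change was -9.13 ± 0.18 against the wild type and -8.53 ± 0.18 against the recovery strain (SE, limma).

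The members on either side of PDE_09235 showed a similar fall in the deletion strain, but their recovery and wild-type libraries overlapped. PDE_09234 had 3038, 2205 and 3192 FPKM in the wild-type libraries, 3.92, 3.45 and 5.72 in the deletion libraries and 1997, 1936 and 2406 in the recovery libraries. PDE_09236 had 3887, 2684 and 4219 FPKM in the wild-type libraries, 6.68, 6.84 and 10.8 in the deletion libraries and 3004, 3086 and 3188 in the recovery libraries. Wild-type replicate 2 lay within the recovery range in PDE_09234 and below it in PDE_09236, while the other wild-type libraries were above it in both. PDE_09233 had 1464, 1075 and 1442 FPKM in the wild-type libraries, 2.47, 1.73 and 2.48 in the deletion libraries and 839.8, 850.2 and 1006 in the recovery libraries, with all recovery libraries below all wild-type libraries.

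Another group of abundant members, PDE_09239 to PDE_09242, lay further right. PDE_09239 had 4367, 2948 and 4425 FPKM in the wild-type libraries, 10.1, 9.42 and 16.03 in the deletion libraries and 2442, 2359.9 and 2775 in the recovery libraries. PDE_09240 had 2320.4, 1498 and 2372 FPKM in the wild-type libraries, 4.87, 3.05 and 9.36 in the deletion libraries and 1719.5, 1587 and 1772 in the recovery libraries. PDE_09241 had 2927, 2116 and 2943 FPKM in the wild-type libraries, 7.34, 6.01 and 14.7 in the deletion libraries and 1778, 1992 and 2203 in the recovery libraries. In each of these members deletion replicate 3 was the highest of its strain. PDE_09242 had 2574, 2134 and 2676 FPKM in the wild-type libraries, 23.1, 17.3 and 33.8 in the deletion libraries and 2568, 2509 and 2297 in the recovery libraries. Its deletion libraries were all above those of its 3 left neighbours, and its recovery libraries lay inside the wild-type range.

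At the left end of the stretch stood PDE_09228, with 2648, 1903 and 2996 FPKM in the wild-type libraries, 3.54, 3.16 and 4.65 in the deletion libraries and 1332, 1259 and 1949 in the recovery libraries. PDE_09229 had 1605, 1040.3 and 1464 FPKM in the wild-type libraries, 5.94, 3.76 and 5.19 in the deletion libraries and 730.1, 693 and 805 in the recovery libraries. Both were high in the wild type, and in PDE_09229 the recovery libraries were all below the wild-type libraries. PDE_09230 had 706, 563 and 633 FPKM in the wild-type libraries, 13.8, 15.02 and 13.9 in the deletion libraries and 491, 497 and 590.2 in the recovery libraries. Its 3 deletion libraries were alike and above those of its neighbours on both sides. Its log2 change was -5.38 ± 0.14 against the wild type, where PDE_09229 on its left had -7.84 ± 0.20 and PDE_09231 on its right -6.95 ± 0.19 (SE). PDE_09231 had 766, 633 and 786 FPKM in the wild-type libraries, 4.84, 3.56 and 6.64 in the deletion libraries and 563, 569.9 and 574 in the recovery libraries.

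Apart from the ends of the stretch, PDE_09232, PDE_09237, PDE_09238 and PDE_09243 remained. PDE_09232 had 931, 550.3 and 985 FPKM in the wild-type libraries, 1.24, 0.70 and 1.09 in the deletion libraries and 566, 545 and 576 in the recovery libraries. PDE_09237 had 885, 485 and 892 FPKM in the wild-type libraries, 0.93, 0.76 and 1.06 in the deletion libraries and 431, 424 and 510.4 in the recovery libraries. Deletion levels of PDE_09232 and PDE_09237 lay between 0.70 and 1.24 FPKM. PDE_09238 had 623, 384 and 603 FPKM in the wild-type libraries, 0.76, 0.41 and 1.35 in the deletion libraries and 355, 340.0 and 365 in the recovery libraries, and its 0.41 in deletion replicate 2 was the lowest value of the stretch. PDE_09243 had 407, 287 and 370.1 FPKM in the wild-type libraries, 28.6, 19.8 and 37.4 in the deletion libraries and 323, 326 and 350.5 in the recovery libraries, with a log2 change of -3.62 ± 0.23 against the wild type and -3.54 ± 0.23 against the recovery strain (SE). Its wild-type level was under that of PDE_09238, yet its deletion libraries were far above those of PDE_09238.

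Levels of the stretch were low in the deletion libraries but above 0. Whether the lowest of them stand for transcript made in that strain was not tested. None of the 54 values, 18 members in 3 libraries, was 0. For scale, 582 genes of the table had a 0 in at least 1 library and a value above 0 in another, and their lowest value above 0 had a median of 0.19 FPKM, with 90% of them at or under 0.58. Of the 54 values, 1 was under 0.58. Between the 18 members the residual level ran from 0.122% of the wild-type mean to 17.5%, with a median of 0.291%, and it was under 1% in 13 of them and under 0.5% in 12. The lowest residuals were those of PDE_09237 with 0.122% ± 0.0199 and PDE_09232 with 0.123% ± 0.0339 (SD over 3 deletion libraries). PDE_09228, PDE_09233, PDE_09234, PDE_09235 and PDE_09238 lay between 0.150% and 0.168%, and these members did not differ among themselves beyond their SDs of 0.0126 to 0.0885 percentage points. PDE_09236, PDE_09239, PDE_09240, PDE_09241 and PDE_09229 lay between 0.225% and 0.362%.

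The residual was higher towards the borders, and unevenly so. On the right it was 1.00% ± 0.340 in PDE_09242, 8.05% ± 2.48 in PDE_09243 and 17.5% ± 4.99 in PDE_09244, higher at each of 3 consecutive numbers. On the left it went from 16.3% ± 6.36 in PDE_09227 to 0.150% ± 0.0308 in PDE_09228 in 1 number. Inside the left part PDE_09230 stood at 2.25% ± 0.106 and PDE_09231 at 0.689% ± 0.212, both above PDE_09229 and PDE_09232. Across the 18 members the log2 level in the wild type went with that in the recovery strain at r = 0.972 and with that in the deletion strain at r = -0.145. These r values describe 18 genes from the same libraries, which are not independent points. The second r takes in PDE_09227, PDE_09230, PDE_09242, PDE_09243 and PDE_09244, with residuals of 1.00% to 17.5%, and was not computed without them. In the 12 members under 0.5% the residual stayed between 0.122% and 0.362%, while wild-type means ran from 536.6 to 4621 FPKM.

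**Figure D3:**
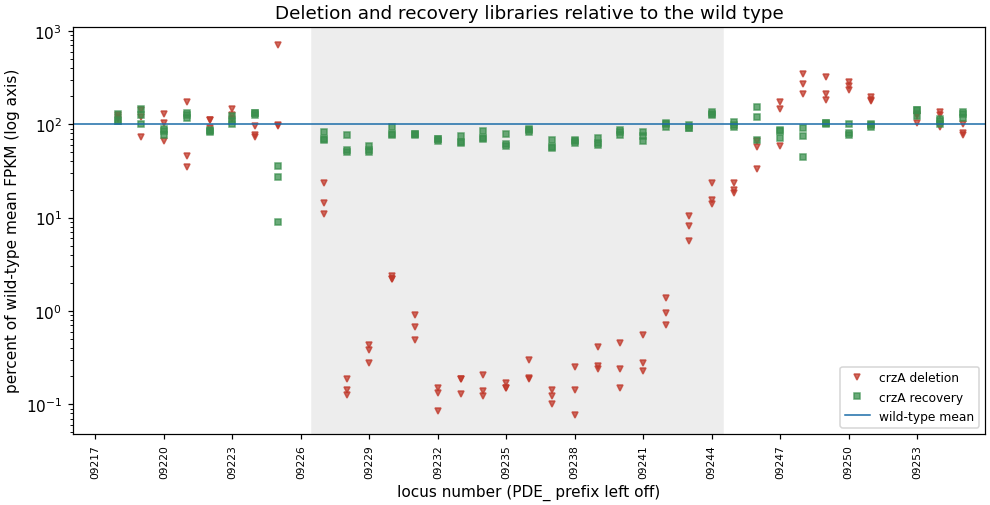
Each deletion (triangles) and recovery (squares) library as a percent of the wild-type mean FPKM of the same gene, on a log axis, for the 36 tested members; the line marks the wild-type mean and the grey band the steep stretch. The deletion libraries reach 0.122% of the wild-type mean on average in PDE_09237 and 17.5% in PDE_09244, and the recovery means of the stretch lie between 54.2% and 129.8%.

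Both borders were defined by the 4-fold mark, and the nearest members on either side of it were as follows. PDE_09227, the first inside, had 235, 158 and 254 FPKM in the wild-type libraries, 31.2, 23.8 and 50.4 in the deletion libraries and 148, 150.4 and 178 in the recovery libraries; its log2 changes were -2.62 ± 0.28 and -2.21 ± 0.28 against the wild type and the recovery strain (SE). The latter change fell short of the 4-fold mark without deletion replicate 2, with or without wild-type replicate 2, at -1.97, and with array weights, which give less weight to libraries far from the rest, at -1.85. The nearest analysed member outside it, PDE_09225, had 3.56, 5.13 and 2.27 FPKM in the wild-type libraries, 3.49, 25.7 and 3.58 in the deletion libraries and 0.99, 1.31 and 0.33 in the recovery libraries. Its 25.7 in deletion replicate 2 stood far above the other deletion libraries, which lay within the wild-type range, and all recovery libraries were below all wild-type libraries. PDE_09224 had 16.2, 18.00 and 17.7 FPKM in the wild-type libraries, 13.3, 16.7 and 12.6 in the deletion libraries and 22.97, 21.5 and 22.6 in the recovery libraries, with log2 changes of -0.27 ± 0.14 and -0.63 ± 0.14. The number between PDE_09225 and PDE_09227 was not analysed here, so the left border is known only to that extent.

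On the right, PDE_09244 was the last member inside, with 846, 729 and 868 FPKM in the wild-type libraries, 125, 114 and 189 in the deletion libraries and 1034, 1040.4 and 1096 in the recovery libraries. It kept the highest deletion level of the stretch, and its recovery libraries were all above its wild-type libraries. PDE_09245, the first outside, had 13.01, 7.23 and 11.9 FPKM in the wild-type libraries, 2.51, 2.12 and 1.98 in the deletion libraries and 11.2, 10.4 and 10.01 in the recovery libraries, with log2 changes of -1.84 ± 0.21 and -1.85 ± 0.21. Its distance from the 4-fold mark depended on the pseudocount, since with 0.1 in place of 1 the changes were -2.19 and -2.21 and the stretch reached 19 members, while with 5 they were -1.11 and -1.11. As a percent of the wild-type level, the residual of PDE_09245 was 20.5% ± 2.56 and that of PDE_09244 17.5% ± 4.99, a difference under the SD of the latter. PDE_09246 had 3.32, 2.11 and 3.09 FPKM in the wild-type libraries, 1.86, 1.61 and 0.95 in the deletion libraries and 3.38, 4.30 and 1.91 in the recovery libraries, and its log2 changes were -0.64 ± 0.27 and -0.74 ± 0.27. In wild-type level the right border was a step, from at least 729 FPKM in every wild-type library for PDE_09244 to at most 13.01 for PDE_09245, whereas the log2 change narrowed over several numbers. On the left the wild-type level went from 3.65 ± 1.43 in PDE_09225 over 216 ± 50.9 in PDE_09227 to 2516 ± 558 FPKM in PDE_09228 (SD, n = 3).

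Past the right border, 3 members were at least 2-fold higher in the deletion strain against both other strains, as were 6.54% of all tested genes. PDE_09250 had 132, 188 and 132 FPKM in the wild-type libraries, 432, 386 and 348 in the deletion libraries and 115, 123 and 152 in the recovery libraries; the log2 changes were 1.37 ± 0.19 and 1.58 ± 0.19. PDE_09249 had 46.7, 48.1 and 58.8 FPKM in the wild-type libraries, 109, 164 and 92.6 in the deletion libraries and 52.04, 52.5 and 52.9 in the recovery libraries, with 1.20 ± 0.20 and 1.16 ± 0.20. Every deletion library of both was above every library of the other strains. PDE_09248 had 3.25, 2.24 and 4.64 FPKM in the wild-type libraries, 11.7, 9.03 and 7.11 in the deletion libraries and 2.50, 1.49 and 3.07 in the recovery libraries, and log2 changes of 1.24 ± 0.28 and 1.62 ± 0.28. At this low level the pseudocount mattered, and with 5 in its place the changes were 0.77 and 0.95. PDE_09251, next in number, had 310.4, 333 and 291 FPKM in the wild-type libraries, 556, 603 and 562 in the deletion libraries and 308, 316 and 294 in the recovery libraries, higher in every deletion library but by under 2-fold, at 0.88 ± 0.13 and 0.90 ± 0.13. These 4 neighbours stood from 4 to 7 numbers beyond the last steep member, and in each the deletion strain was the highest.

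Of the 20 flanking members, 9 lay to the left and 11 to the right, and 8 and 10 of them passed the filter. PDE_09217 and PDE_09252 did not, with values from 0 to 0.37 FPKM and from 0 to 0.46. On the left, PDE_09218 was abundant and overlapped between strains, with 558, 841 and 597 FPKM in the wild-type libraries, 836, 802 and 756 in the deletion libraries and 718, 716 and 851 in the recovery libraries. Against the wild type no left-flank member was called in either direction, and on the right PDE_09245 was called lower and PDE_09248, PDE_09249, PDE_09250 and PDE_09251 higher, which makes 1 and 4 of the 18 tested flanking members, where 11.1% and 15% of all tested genes were. Against the recovery strain the calls on the flanks were PDE_09224, PDE_09245 and PDE_09255 lower, and PDE_09225 with the same 4 members higher, which makes 3 and 5 of the 18, where 16.1% and 15.4% of all tested genes were. In that comparison the log2 change of PDE_09225 was 2.16, and its call was lost with a pseudocount of 5, where the change was 1.16, and without recovery replicate 1, 2 or 3. Without deletion replicate 2 it was called at 1.31, and it did not pass a filter at 5 FPKM. The call of PDE_09255, at -0.52, was lost in 8 of 21 alternatives, with changes from -0.66 to -0.35 over all 21. The 8 were rescaling to TPM, quantile normalization, and leaving out wild-type replicate 3, deletion replicate 1 or 3, or recovery replicate 1, 2 or 3. The other flank calls held under every alternative tried. The median log2 change over the 18 tested flanking members was 0.20 against the wild type and 0.13 against the recovery strain.

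Libraries of a strain differed along the whole stretch together. Wild-type replicate 2 was the lowest wild-type library in 18 of the 18 steep members, where it was the lowest in 45.8% of all tested genes and in 7 of the 18 tested flanking members. It stood at a median of 69.3% of the mean of replicates 1 and 3 over the steep members, from 54.6% in PDE_09237 to 85.01% in PDE_09244, and at 98.1% over all tested genes. In the deletion strain replicate 3 was the highest library in 14 of the 18, against 22.1% of all tested genes, and replicate 2 the lowest in 15, against 44.2%. Replicate 3 was above replicate 2 by a median of 65.9%. Recovery replicates 1 and 2 differed by a median of 2.89% in either direction. Replicate 3 was the highest recovery library in 17 of the 18, and in 8 of the 18 tested flanking members. Its share over all tested genes was not computed. The coefficient of variation over the stretch had a median of 20.1% in the wild type, 28.6% in the deletion strain and 8.19% in the recovery strain, where all tested genes had 15.4%, 21.6% and 8.21%. Wild-type replicate 2 and deletion replicate 2 are the libraries that stood apart over all genes. Over the stretch, however, deletion replicate 3 lay further from deletion replicate 1 than replicate 2 did, at medians of 41.6% and -21.0%. The part of the libraries that stood apart in these patterns was not tested.

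**Figure D4:**
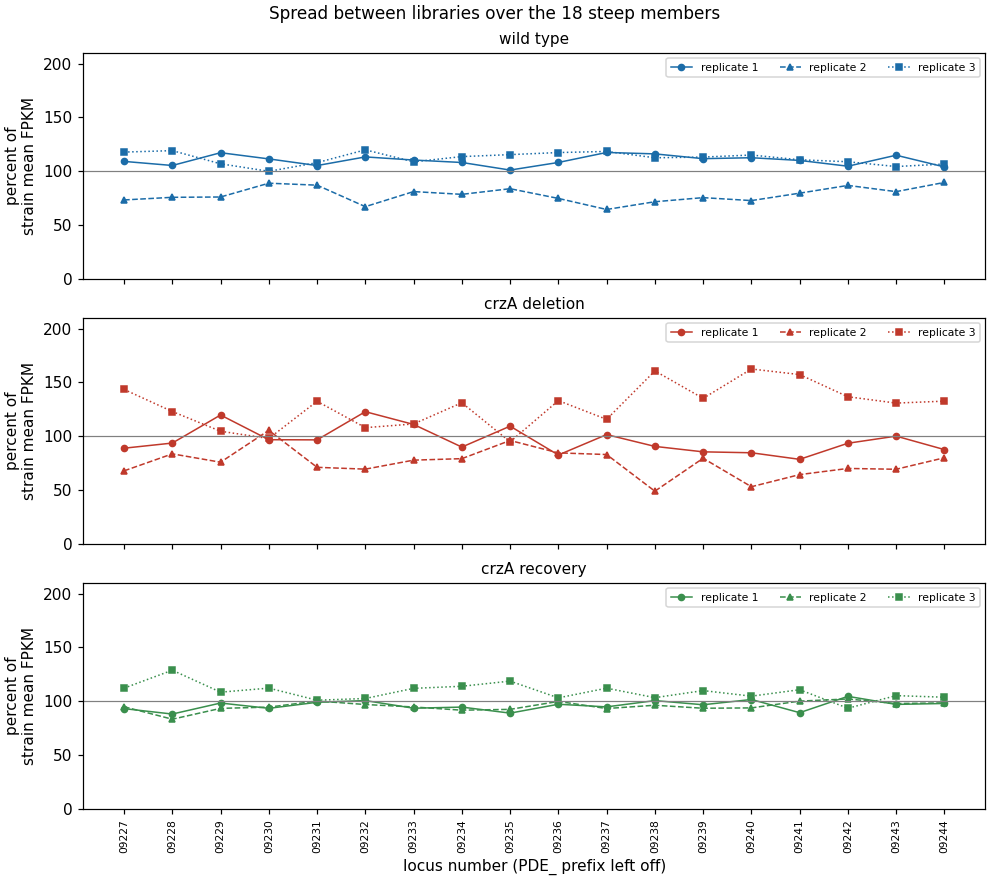
Each library as a percent of its own strain's mean FPKM over the 18 steep members, in wild type (top), crzA deletion (middle) and crzA recovery (bottom). Wild-type replicate 2 (triangles, dashed) is the lowest of its strain at every member, and deletion replicate 3 (squares, dotted) is the highest of its strain in 14 of 18.

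Recovery libraries were set against wild-type libraries to ask how far the stretch came back once crzA was restored. This comparison did not choose the window and was tested, though the libraries of both strains entered that choice through the deletion comparisons. The steep members stood at 54.2% to 129.8% of their wild-type means, with a median of 74.2%, where the median over all tested genes was 106%. Against wild-type replicate 2 alone their median was 94.0%, from 71.4% to 145.0%. Against the mean of replicates 1 and 3 it was 66.3%, from 48.4% to 123.3%. The size of the shortfall thus depended on the wild-type library. The recovery mean was below the wild-type mean in 17 of the 18, against 38.8% of all tested genes. Every recovery library was below every wild-type library in 6 of the 18, against 8.17% of all tested genes, above in 1, against 21.9%, and the strains overlapped in the other 11. The median log2 change of the stretch was -0.41, and 0.09 over all tested genes. On that scale 16 of the 18 were lower, and 15 to 17 were under the other scalings, with the exceptions among PDE_09236, PDE_09242 and PDE_09244. The steep members moved together between libraries, so counts over them, here and below, are not counts of independent results.

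None of the 36 tested members was called in this comparison (limma, Benjamini-Hochberg adjusted p under 0.05), where 0.725% of all tested genes were called lower and 0.846% higher. At an unadjusted p under 0.05, 7 of the 18 steep members were lower and 0 higher, against 4.68% and 9.53% of all tested genes, and 2 flanking members were higher. The lowest adjusted p was that of PDE_09229, which stood at 54.2% ± 4.17 of its wild-type mean (SD over 3 recovery libraries); the log2 change was -0.86 ± 0.20 (SE; limma, adjusted p = 0.0827), with an unadjusted 95% interval of -1.32 to -0.40. PDE_09235 stood at 65.95% ± 10.7, which is -0.60 ± 0.18 on the log2 scale (limma, adjusted p = 0.156, interval -1.003 to -0.20). PDE_09228 stood at 60.1% ± 15.1, or -0.74 ± 0.23 (limma, adjusted p = 0.186, interval -1.26 to -0.21). These intervals lie below 0 before adjustment over all genes, as do those of PDE_09233, PDE_09237, PDE_09238 and PDE_09239. A level equal to that of the wild type is therefore not shown for these members. For the other members the lack of a call does not show an equal level either.

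The right end of the stretch stood nearer to or above the wild type in the recovery strain. PDE_09242 stood at 99.9% ± 5.80 of the wild-type mean, or 0.00 ± 0.23 on the log2 scale (limma, adjusted p = 0.997, interval -0.52 to 0.52), PDE_09243 at 93.9% ± 4.24 (-0.08 ± 0.23, adjusted p = 0.907) and PDE_09244 at 129.8% ± 4.17 (0.38 ± 0.20, adjusted p = 0.443). The difference between the end and the middle was not tested. On the flanks PDE_09225 had the lowest recovery level relative to the wild type, at 24.00% ± 13.7, or -1.30 ± 0.63 on the log2 scale (limma, adjusted p = 0.4, interval -2.73 to 0.13). The 3 members higher in the deletion strain were at 69.7% to 102.5% of the wild type in the recovery strain, and all 3 had an adjusted p of at least 0.593.

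The absence of calls depended on the 2 libraries set apart above. Without wild-type replicate 2, 6 steep members were called lower in the recovery strain, where 4.79% of all genes then were, namely PDE_09228, PDE_09229, PDE_09232, PDE_09233, PDE_09235 and PDE_09237, with log2 changes from -1.05 to -0.70. That replicate was the lowest wild-type library in all 18 steep members. Leaving it out, alone or with deletion replicate 2, could therefore only lower their changes. Their median was -0.60 without it, -0.34 without wild-type replicate 1 and -0.31 without wild-type replicate 3. Without deletion replicate 2, whose spread the fit pools with the other strains, PDE_09225 and PDE_09229 were called lower, where 1.67% of all genes were. Without both libraries 12 steep members and 2 flanking ones were lower and 3 flanking ones higher, where 12.5% of all genes were called lower and 15.7% higher. Array weights also called 12 and 2 lower, and 2 flanking members higher, where 10.5% and 18.7% of all genes were. PDE_09236 and the 5 members from PDE_09240 to PDE_09244 were not called under any of these settings.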

How the data were processed

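One table of 9860 genes was used. Its 9 library columns were matched to samples by name. The unit is FPKM, per the file headers, as deposited by the authors with 2 decimals. The labels' protocols describe tags made with NlaIII and MmeI, and name neither aligner nor counter, build or annotation. Since depth is unknown, no counting interval was computed.

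The filter asked for 1 FPKM or more in 3 libraries or more and left 9099 genes, 36 of the 38 members among them. limma 3.58.1 (R 4.3.3) modelled log2(FPKM + 1) with a mean per strain over the 9 libraries, without covariates and with trend and robust options. Tests were two-sided and adjusted by Benjamini-Hochberg over all genes, with calls at 0.05. The added 1 shrinks the fold changes of low genes. The fit was tested on simulated data with 200 changed genes. The simulation gave every library the same spread, taken from the recovery strain, so it did not cover libraries that stand apart. Summaries used Python 3.11.15 and pandas 2.3.3.

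The members, the stretch and the tests were chosen with earlier results of these data known. Values in every library were given for members at least 8-fold lower in the deletion strain against both others, the members on each side of both borders, those at least 2-fold higher, and those called in recovery against wild type. PDE_09218 and PDE_09251 were added after their values were seen, as were locus numbers named in lists of calls. Alternatives covered pseudocounts, filters, scalings, limma options, the replicate block and leaving out libraries.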

Additional observations from a re-analysis of the deposited data

How the results depend on the processing

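Under the settings tried, 17 to 19 members were at least 4-fold lower in the deletion strain against both others, with 19 at a mark of 2-fold and 16 at a mark of 8-fold. The summed residual of the stretch lay between 0.81% and 1.08% of the wild type. Of 1046 values of named members in the deletion comparisons, 38 moved by more than the spread between libraries, all 38 under a pseudocount of 0.1 or 5. Members called higher in deletion against recovery were 5 in the fit reported, 8 with array weights, 8 without both libraries that stood apart and 4 to 8 with 1 library left out at a time, the 8 without deletion replicate 2. In recovery against wild type, where 0 members were called, 14 were lower and 2 higher with array weights, 14 lower and 3 higher without both libraries, and 0 to 6 lower with 1 library left out, the 6 without wild-type replicate 2. In the same comparison signs turned for members near no change. PDE_09242 was -0.008 after rescaling to TPM, -0.068 after median centring, -0.015 with array weights, -0.096 without both libraries and -0.096 to 0.067 with 1 library left out. PDE_09245 was -0.052 after quantile normalization, -0.056 after median centring, -0.156 with array weights, -0.221 without both libraries and -0.221 to 0.162 with 1 left out. PDE_09249 was -0.024 after quantile normalization, -0.029 after median centring and -0.019 to 0.144 with 1 left out. PDE_09246 was -0.046 without both libraries and -0.091 to 0.342 with 1 left out, PDE_09236 was 0.115 after quantile normalization, and PDE_09243 was -0.221 to 0.030 with 1 left out. The cause was not tested. Whether replicate numbers pair the libraries was not tested. Deviations from the strain means correlated over 0.1 in 3 of 9 pairs with a shared number, with r from -0.106 to 0.222. Of the 9 libraries, 6 correlated best with their own number. With the replicate block the calls were 19 lower and 4 higher against the wild type, 21 lower and 5 higher against the recovery strain, and 0 in recovery against wild type, as without it. Limits set by absolute depth were not estimated.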
